A study of Mus musculus with 23 samples.

Results

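Genes of the matrix metalloproteinase (MMP), ADAM, ADAMTS and TIMP families were followed in sorted cells of the mouse incisor. They were taken by symbol: every gene named Mmp, Adam, Adamts, Adamtsl or Timp with a number and at most 1 trailing letter, without pseudogenes, Mmp8 and Mmp20. This gave 81 of the 54347 genes in the deposited table: 33 Adam, 20 Mmp, 19 Adamts, 5 Adamtsl and 4 Timp genes. Of the 81, 51 had a mean over the 4 groups of at least 1 CPM (counts scaled by the TMM method to a common library size) and are described in detail.

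The libraries came from the labial cervical loop, where the epithelium folds at the rear end of the growing lower incisor, of mice at postnatal day 2. All mice were of the Sox2-GFP line, in which the endogenous Sox2 promoter drives green fluorescent protein. The dissociated cells were sorted into Sox2-positive cells, named dental epithelial stem cells by the study, and Sox2-negative cells, the rest of the dissected region. Batch A held 6 Sox2-negative and 6 Sox2-positive libraries and batch B held 4 and 7. The batches are experiments on separate days with different mice, and group means below are given ± SD over these 6, 6, 4 and 7 libraries. Smart-seq2, a full-length method for small amounts of RNA, was used for the libraries. Since the labels do not say whether libraries of 1 batch came from different mice, the p-values measure the spread between libraries, which may be technical. The comparison asks in which of the sorted populations the proteases and their inhibitors are expressed.

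MMPs are zinc-dependent endopeptidases, secreted or held at the membrane, that cleave collagens, basement membrane and other matrix proteins. ADAMs are membrane-anchored relatives that shed the outer parts of receptors, ligands and adhesion proteins, and ADAMTS enzymes are secreted relatives that trim procollagens and cleave proteoglycans. ADAMTS-like proteins lack the protease domain, and TIMPs are secreted inhibitors of MMPs and of some ADAM and ADAMTS enzymes. In tooth development these enzymes are known for remodelling the matrix between epithelium and mesenchyme.

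The genes followed here include a cluster of 7 Mmp genes on chromosome 9 (chr9:7272514-7699585, GENCODE M21 on GRCm38), and these had very different levels. The cluster was drawn from the followed genes alone, without Mmp8 and Mmp20, so it need not be complete. Mmp13 at the start of this cluster had the highest mean of the families in Sox2-negative cells, a mean of 1071 ± 300 CPM for batch A (SD, n = 6), and for batch B 1722 ± 340 CPM (SD, n = 4). Its neighbour Mmp12, the macrophage elastase, was at 5.18 and 5.26 CPM in the same groups. Mmp1b, Mmp3, Mmp10 and Mmp7 had no count in any of the 23 libraries, and Mmp27 had at most 1 count. The 120 bases before the RefSeq start (GRCm38.p6) are shown for all 7 genes because the genes lie in the same cluster with unequal counts. Mmp13 is at chr9:7272394-7272513, Mmp12 at chr9:7344277-7344396, Mmp3 at chr9:7445702-7445821, Mmp10 at chr9:7502222-7502341, Mmp27 at chr9:7571276-7571395 and Mmp7 at chr9:7691970-7692089, all on the + strand, and Mmp1b is at chr9:7388027-7388146 on the - strand. Capitals mark the letters TGANTCA, the AP-1 motif, and TATAAA, the TATA box, searched on both strands.
Mmp13: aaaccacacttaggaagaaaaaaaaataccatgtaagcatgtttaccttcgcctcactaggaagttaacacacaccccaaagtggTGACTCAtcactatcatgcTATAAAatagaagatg
Mmp12: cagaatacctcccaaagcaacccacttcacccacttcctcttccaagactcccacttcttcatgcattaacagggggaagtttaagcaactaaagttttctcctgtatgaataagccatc
Mmp3: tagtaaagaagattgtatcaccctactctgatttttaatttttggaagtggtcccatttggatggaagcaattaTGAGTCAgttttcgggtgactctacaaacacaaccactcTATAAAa
Mmp10: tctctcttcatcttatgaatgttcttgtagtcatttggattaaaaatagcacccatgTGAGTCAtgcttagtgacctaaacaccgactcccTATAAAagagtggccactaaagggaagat
Mmp7: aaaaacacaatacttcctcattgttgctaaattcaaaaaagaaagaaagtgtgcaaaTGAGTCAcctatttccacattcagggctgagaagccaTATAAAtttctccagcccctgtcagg
Mmp1b: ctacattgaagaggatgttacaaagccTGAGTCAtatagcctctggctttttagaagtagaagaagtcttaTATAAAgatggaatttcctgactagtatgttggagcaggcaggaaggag
Mmp27: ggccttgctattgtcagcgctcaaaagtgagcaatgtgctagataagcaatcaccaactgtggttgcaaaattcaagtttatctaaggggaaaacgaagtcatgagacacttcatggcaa

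AP-1 letters stood in 5 of these 7 stretches, at bases -35 to -29 from the start for Mmp13, -46 to -40 for Mmp3, -63 to -57 for Mmp10 and for Mmp7, and -93 to -87 for Mmp1b. TATAAA followed them in the same 5 stretches. The stretches of Mmp12 and Mmp27 held neither, nor did that before a second RefSeq start of Mmp7, while a second RefSeq start of Mmp12, 2993 bases downstream of the GENCODE start, had AP-1 letters at -44 to -38. Mmp13 and the 4 genes without a count thus carried the same 2 sets of letters. In the 250 bases before the start, 6.75% of all 32851 RefSeq windows held TGANTCA and 12.4% held TATAAA. RefSeq promoter entries matched 50 of the 81 genes, and 10 of their 55 windows (18.2%) held TGANTCA. Among the 35 windows of the genes described in detail the share was 8.57%. GGGCGG, the GC box, was in 43.6% of the 55 windows, in 62.9% of those 35 windows and in 32.7% of all windows. The 35 windows belong to genes chosen by their level, and all windows were not chosen in this way. A match is a description of letters, not of a bound site.

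Library totals ranged from 2305778 to 9541443 estimated counts (median 4831091), so 3 counts corresponded to 0.314 to 1.30 CPM before TMM scaling. Sox2 itself was at 0 to 0.26 (batch A) and 0 to 1.18 (batch B) CPM in Sox2-negative libraries, and at 2.54 to 12.9 and 13.2 to 20.3 CPM in Sox2-positive libraries. Sox2-positive cells were higher in all 8 of 8 epithelial markers (Epcam, Krt14 and others), which summed to 3686 to 4042 and 3817 to 5964 CPM in their batch A and B libraries against 143 to 253 and 343 to 389 CPM. All 8 of 8 mesenchymal markers were lower, with sums of 1213 to 1777 and 597 to 684 CPM in Sox2-positive libraries against 11451 to 13006 and 10699 to 13667 CPM, and Twist1 was at 0 in every Sox2-positive library. All of the 6 endothelial, 6 leukocyte, 4 neutrophil, 4 erythroid and 4 mast cell markers were lower in Sox2-positive cells. The summed neutrophil markers reached at most 1.1 CPM there against 2815 to 3434 and 452 to 499 CPM in the Sox2-negative libraries of batches A and B, and the leukocyte markers at most 12.8 CPM against 413 to 621 and 132 to 196 CPM. All 3 of 3 glial markers were higher in Sox2-positive cells, with sums of 227 to 327 and 15 to 33.6 CPM against at most 4.63 CPM. Cd52 among the leukocyte and Ltf among the neutrophil markers were at 0 in every Sox2-positive library. The part of these cell types in the differences below was not tested, and in bulk samples fewer cells of a type and less RNA per cell cannot be told apart. In batch B, Sox2-negative library 1 deviated from its group most like Sox2-positive library 2, and Sox2-negative library 2 most like Sox2-positive library 1. Mutual best matches of unlike numbers also occurred elsewhere, such as Sox2-negative library 2 with Sox2-positive library 5 in batch A, so such a match does not show crossed numbers. As a precaution, the population differences and interactions named below whose call ended without these 4 batch B libraries are also given without them.

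Most of the measured family members were lower in Sox2-positive cells. Over both batches, with batch in the model, 50 of the 51 genes passed the filter on low counts, 32 of them were lower in Sox2-positive cells, 2 were higher and 16 were not called (edgeR quasi-likelihood test, Benjamini-Hochberg adjusted p under 0.05 over all 17190 genes tested). Among all genes tested 57.5% were called, 32.5% lower and 24.9% higher. The median log2 fold change was -1.64 over the 50 genes and -0.12 over all genes tested. A gene could pass the filter by its counts in 1 population alone, which held for members and for all genes alike. Adam33, Adamts12, Adamts16, Adamtsl3, Mmp19 and Mmp25, all called lower, were under 1 CPM in both Sox2-positive groups. Within the families, 8 of 12 Mmp genes were lower and 1 higher (median log2 fold change -1.43), and 7 of 13 Adam genes were lower and 1 higher (-1.22). The same comparison gave 12 of 17 Adamts genes (-1.83), 2 of 5 Adamtsl genes (-1.67) and all 3 of 3 Timp genes (-1.64) lower, with none higher. The 2 genes called higher were Mmp17 and Adam10.

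**Figure D1:**
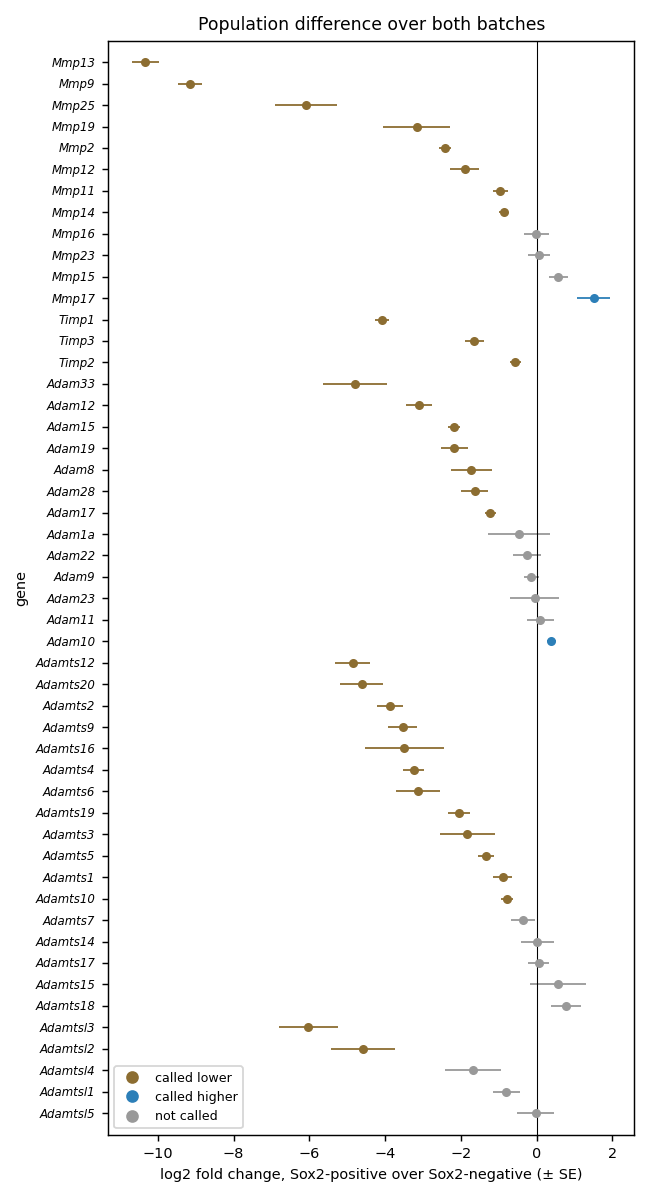
Log2 fold change of Sox2-positive over Sox2-negative cells over both batches for the 50 genes tested, 1 point per gene with its standard error, in family blocks. The 32 genes called lower reach -10.33 for Mmp13, while the 2 called higher, Mmp17 and Adam10, lie at 1.51 and 0.39.

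In each batch alone most of the called members were lower as well. In batch A, 41 of the 51 genes were tested, with 20 lower, 2 higher and 19 not called, beside 24.2% of all genes lower, 19.3% higher and 43.4% called either way. In batch B, 46 were tested, with 30 lower, 3 higher and 13 not called, beside 27.6% of all genes lower, 27.1% higher and 54.7% either way. The median log2 fold change was -0.86 in batch A and -1.57 in batch B, against -0.04 and 0.01 over all genes tested. The 20 genes lower in all 3 fits were Mmp2, Mmp9, Mmp12, Mmp13, Mmp14, Timp1, Timp3, Adam12, Adam15, Adam17, Adam19, Adamts2, Adamts4, Adamts5, Adamts9, Adamts10, Adamts12, Adamts19, Adamts20 and Adamtsl2. None was higher in all 3. Over the genes tested in all 3 fits, 18.2% were lower in each and 14.6% higher in each.

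Separation of the libraries showed the same direction. In batch A every Sox2-negative library lay above every Sox2-positive library for 22 of the 51 genes, and the reverse held for 1, Adam23. The corresponding shares of all 17190 genes were 14.3% and 10.9%, together 25.2%. In batch B, 27 of the 51 genes had every Sox2-negative library above and 1, Adamts18, every Sox2-positive library above, beside 20.2% and 16.2% of all genes, together 36.4%.

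**Figure D2:**
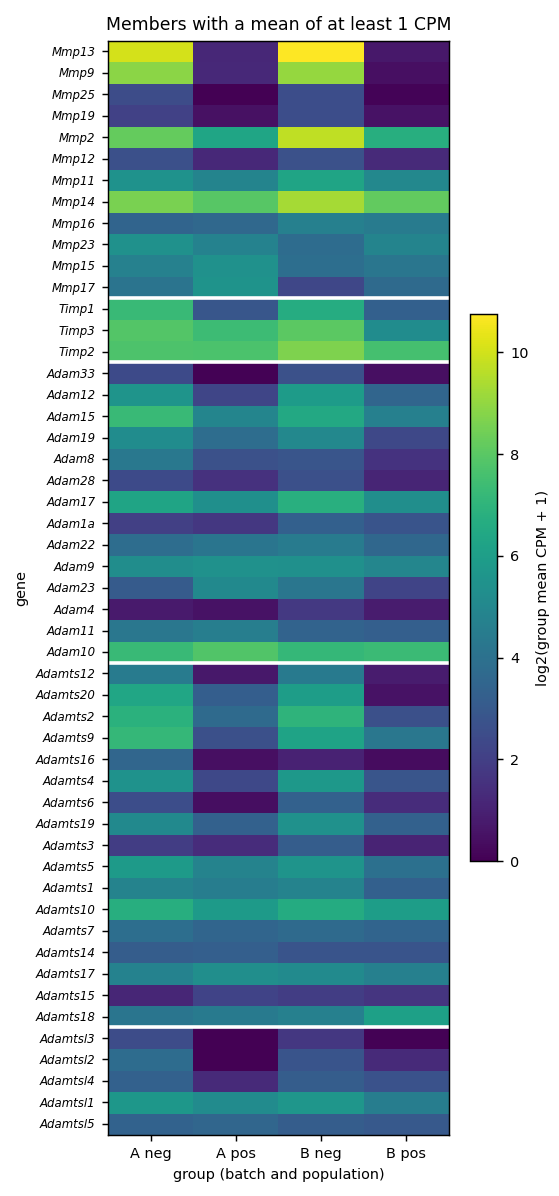
Colour gives log2(group mean CPM + 1) of the 51 genes described in detail, 1 row per gene in blocks of Mmp, Timp, Adam, Adamts and Adamtsl genes, and 1 column per batch and population (neg, Sox2-negative; pos, Sox2-positive). Mmp13 and Mmp9 are bright in both Sox2-negative columns and dark in both Sox2-positive columns, while Mmp14, Timp2 and Adam10 are bright in all 4.

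Between genes, levels were compared per kilobase of mean transcript length. In batch A Sox2-negative cells the order was Mmp13 at 401 ± 112 CPM per kb (SD, n = 6), Mmp9 at 366 ± 34.4, Mmp14 at 267 ± 31.6, Mmp2 at 203 ± 53.3 and Timp1 at 183 ± 41.6. In batch B Sox2-negative cells it was Mmp13 at 644 ± 127 CPM per kb (SD, n = 4), Mmp2 at 588 ± 79.1, Mmp14 at 439 ± 66.3 and Mmp9 at 408 ± 72.2, followed by Timp2 at 184 ± 23.9. The ranges of mean ± SD overlapped between neighbours in both orders except Mmp9 and Mmp14 in batch A, and Mmp2 and Mmp14 and then Mmp9 and Timp2 in batch B. In Sox2-positive cells Mmp14 led in both batches, at 173 ± 17.8 CPM per kb (SD, n = 6) and 199 ± 54 CPM per kb (SD, n = 7). Behind it came Adam10 at 105 ± 9.03, Timp2 at 93 ± 12.9 and Timp3 at 71.7 ± 9.37 in batch A, and Timp2 at 85.3 ± 14.2, Adam10 at 72.8 ± 9.75 and Mmp2 at 72.7 ± 16.2 in batch B. Mmp14 stood apart from the next gene by this measure in both batches, and the genes behind it overlapped with their neighbours. With the longest transcript as the length, Timp1 moved to rank 2 in batch A Sox2-negative cells, Timp1 and Timp2 changed places in batch B Sox2-negative cells, and Adam10 and Timp2 changed places in batch A Sox2-positive cells.

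The secreted collagenase and both gelatinases were lower in Sox2-positive cells, Mmp13 and Mmp9 by far more than Mmp2. Mmp13 (ENSMUSG00000050578.10, chr9:7272514-7283331, + strand), a collagenase of bone and cartilage, ranged from 803 to 1630 CPM in batch A Sox2-negative libraries (median 943) and from 0.221 to 3.19 CPM in Sox2-positive libraries (median 0.759). In batch B, Mmp13 was at 1819, 2038, 1791 and 1239 CPM in the Sox2-negative libraries and at 0 to 1.51 CPM in the Sox2-positive libraries (median 0.484). The populations did not overlap, and no Sox2-positive library held more than 17 counts of Mmp13. Its log2 fold change was -10.33 over both batches (SE 0.35, adjusted p 3.07e-19, edgeR), -9.55 in batch A (SE 0.40) and -11.22 in batch B (SE 0.34), and the change in the population difference between batches did not pass (log2 -1.73, SE 0.66, adjusted p 0.121).

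Mmp9 (ENSMUSG00000017737.2, chr2:164940780-164955850, + strand) encodes gelatinase B, known from neutrophils and bone-resorbing cells. It ranged from 415 to 543 CPM in batch A Sox2-negative libraries (median 467) and from 0 to 2.68 CPM in Sox2-positive libraries (median 1.56). In batch B, Mmp9 was at 588, 558, 577 and 389 CPM against 0 to 0.765 CPM (median 0.423). All Sox2-negative libraries stood far above all Sox2-positive ones, and the log2 fold change was -9.15 (SE 0.32, adjusted p 7.76e-19, edgeR) over both batches, -8.37 in batch A and -10.41 in batch B. The batches differed by -2.09 (SE 0.61, adjusted p 0.0351), a call lost without batch B libraries 1 and 2 (adjusted p 0.251) and in 11 of 23 fits that each left out 1 library. Between the Sox2-negative groups of the batches Mmp9 did not pass (log2 0.16, adjusted p 0.763), while the summed neutrophil markers of these groups were at 2815 to 3434 CPM (batch A) and 452 to 499 CPM (batch B). Their part in the Mmp9 level was not tested.

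Mmp2 (ENSMUSG00000031740.8, chr8:92827291-92853420, + strand), gelatinase A, kept a clear level in Sox2-positive cells. It ranged from 163 to 362 CPM in batch A Sox2-negative libraries (median 316) and from 68.3 to 99.6 CPM in Sox2-positive libraries (median 75.7). In batch B, Mmp2 was at 910, 973, 783 and 724 CPM against 82.2 to 151 CPM (median 94.6). The groups did not overlap in either batch. The log2 fold change was -2.42 over both (SE 0.16, adjusted p 1.55e-12, edgeR), -1.88 in batch A and -2.94 in batch B, and the batches differed by -1.13 (SE 0.24, adjusted p 0.00317). On the Sox2-negative side Mmp2 was higher in batch B (log2 1.53, adjusted p 1.29e-06), while the Sox2-positive groups did not pass (log2 0.40, adjusted p 0.122).

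The membrane-type MMPs, which act at the cell surface, did not share 1 direction. Mmp14, the membrane-type enzyme that activates pro-MMP2, was at 379 ± 44.9 CPM in Sox2-negative and 245 ± 25.2 CPM in Sox2-positive cells of batch A, and in batch B at 623 ± 94.1 and 283 ± 76.8 CPM. Its log2 fold change of -0.87 (adjusted p 8.93e-07, edgeR) was far smaller than that of Mmp13 or Mmp9. Mmp17, another membrane-type MMP, was higher in Sox2-positive cells, at 45.2 ± 23.3 against 16.7 ± 15 CPM in batch A. Its means in batch B were 12.1 ± 5.61 and 3.84 ± 3.9 CPM. Its log2 fold change was 1.51 over both batches (SE 0.44, adjusted p 0.00488, edgeR), 1.44 in batch A (adjusted p 0.0702) and 1.70 in batch B (adjusted p 0.0183, and 0.0547 without batch B Sox2-negative replicate 2). Libraries of the populations overlapped for Mmp17 in both batches.

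Mmp15, a further membrane-type MMP, had Sox2-positive means of 42.9 ± 11.4 and 17.4 ± 7.86 CPM in the batches and Sox2-negative means of 25.4 ± 11.5 and 13.7 ± 1.87 CPM. It just missed the threshold (log2 0.57, SE 0.25, adjusted p 0.0521) and passed it in each of the 8 other settings tried. Mmp16 was not called (log2 -0.01, SE 0.33, adjusted p 0.987), with means from 10 to 24.6 CPM. Mmp25, a leukocyte enzyme anchored to the membrane by a lipid, was at 4.61 and 4.8 CPM in Sox2-negative cells and had no count in the 6 Sox2-positive libraries of batch A. Against a floor of 3 counts per library, 0.592 CPM on average over these libraries, its mean was at least 7.78-fold lower there. The Sox2-negative libraries of batch A were uneven, from 0.638 to 9.51 CPM (median 3.9), so this fold describes the mean and not each library.

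Mmp11, or stromelysin-3, known from stromal cells, was lower over both batches (log2 -0.96, SE 0.20, adjusted p 0.000173, edgeR), in batch B (-1.22) and not by test in batch A (-0.66, adjusted p 0.11). Its exons overlap those of Chchd10 on the other strand, and the counting is not known to use strand. Mmp12 fell to 1.35 and 1.45 CPM in Sox2-positive cells (log2 -1.90, SE 0.39), though without batch B libraries 1 and 2 the batch B difference no longer passed (adjusted p 0.131). Mmp19 was lower at a log2 fold change of -3.17 (adjusted p 0.00322), a call lost without those libraries (adjusted p 0.0777). Mmp23, described with the batches below, did not differ over both (log2 0.07, adjusted p 0.854).

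**Figure D3:**
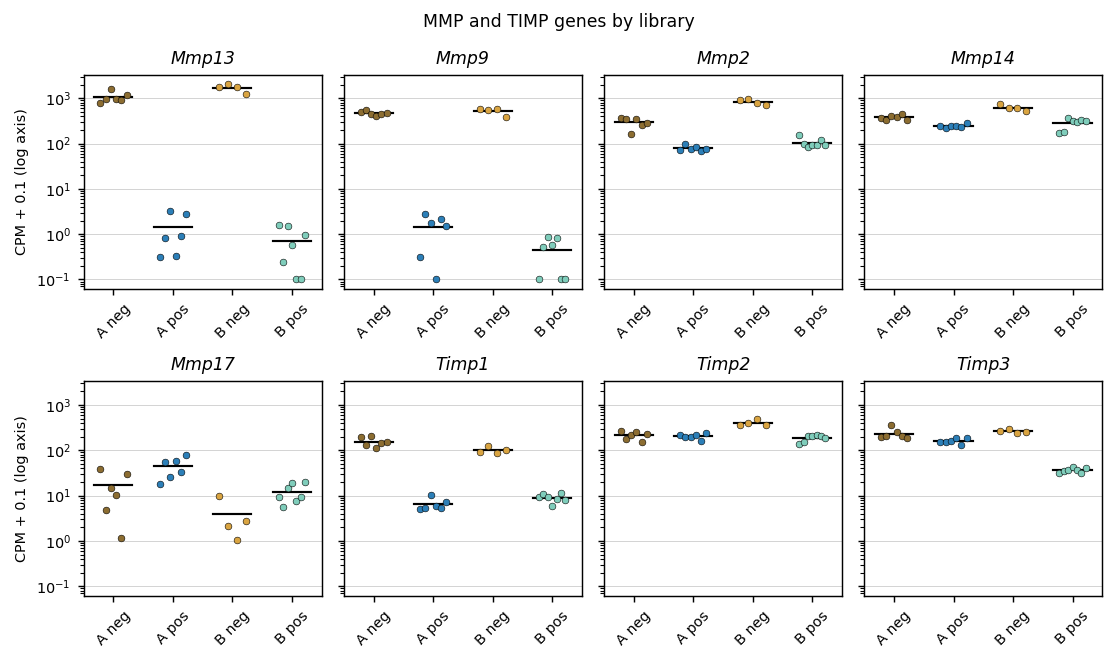
CPM + 0.1 on a log axis for 5 Mmp and 3 Timp genes, 1 point per library and a bar at the group mean, by batch (A, B) and population (neg, pos). Mmp13 and Mmp9 lie at or under 3.19 CPM in all Sox2-positive libraries and at or above 389 CPM in all Sox2-negative libraries, Timp2 overlaps in batch A only, and Timp3 of batch B Sox2-positive libraries lies at 31.3 to 43.5 CPM, below all others.

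The TIMP inhibitors were all lower in Sox2-positive cells over both batches, each by a different amount and with a different dependence on batch. Timp1 (ENSMUSG00000001131.11, chrX:20870166-20874735, + strand), the secreted inhibitor that binds pro-MMP9, ranged from 115 to 206 CPM in batch A Sox2-negative libraries (median 147) and from 4.86 to 10.1 CPM in Sox2-positive libraries (median 5.64). In batch B, Timp1 was at 89.9, 124, 86.8 and 99.6 CPM against 5.8 to 11.4 CPM (median 9.18). The populations were fully apart in both batches. The log2 fold change was -4.08 over both (SE 0.19, adjusted p 8.3e-16, edgeR), -4.59 in batch A and -3.40 in batch B. The batches differed by 1.12 (SE 0.30, adjusted p 0.0187), which no longer passed without batch B libraries 1 and 2 (adjusted p 0.117).

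Timp2 (ENSMUSG00000017466.9, chr11:118301069-118355740, - strand) takes part in the activation of pro-MMP2 by MMP14 as well as inhibiting MMPs. It ranged from 153 to 262 CPM in batch A Sox2-negative libraries (median 223) and from 159 to 241 CPM in Sox2-positive libraries (median 209). In batch B, Timp2 was at 372, 405, 483 and 370 CPM against 139 to 219 CPM (median 207). The groups overlapped fully in batch A and not at all in batch B. Its log2 fold change was -0.07 in batch A (SE 0.14, adjusted p 0.741, edgeR) and -1.04 in batch B (SE 0.14, adjusted p 1.04e-05), and the batches differed by -1.04 (SE 0.20, adjusted p 0.00163). As with Mmp2, the Sox2-negative group was higher in batch B (log2 0.92, adjusted p 0.000187) and the Sox2-positive groups did not pass (log2 -0.13, adjusted p 0.676).

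Timp3 (ENSMUSG00000020044.13, chr10:86300372-86349506, + strand) encodes the matrix-bound inhibitor, which also blocks ADAM17 and several ADAMTS enzymes. It ranged from 189 to 359 CPM in batch A Sox2-negative libraries (median 209) and from 133 to 188 CPM in Sox2-positive libraries (median 158). In batch B, Timp3 was at 269, 291, 239 and 256 CPM against 31.3 to 43.5 CPM (median 36.5). The groups lay close together in batch A and far apart in batch B. The log2 fold change was -0.52 (SE 0.16, adjusted p 0.0136, edgeR) in batch A and -2.78 (SE 0.12, adjusted p 2.76e-11) in batch B, a difference of -2.33 (SE 0.21, adjusted p 2.26e-08). Here the Sox2-positive side changed, with a log2 difference of -2.16 between batches (adjusted p 1.04e-11), and the Sox2-negative side did not pass (0.16, adjusted p 0.563). In the Sox2-positive libraries the summed levels of 3 glial markers (Sox10, Foxd3 and Erbb3) were 227 to 327 CPM (batch A) and 15 to 33.6 CPM (batch B), of 8 mesenchymal markers 1213 to 1777 and 597 to 684 CPM, and of 3 ameloblast markers 286 to 341 and 6.53 to 10.1 CPM. Their part in this difference was not tested. Exons of Timp3 overlap those of Syn3 on the opposite strand.

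Among the ADAM sheddases the main enzymes moved apart. Adam10, the constitutive sheddase of Notch receptors and cadherins, was the more abundant, at 154 ± 37.9 CPM in Sox2-negative and 229 ± 19.7 CPM in Sox2-positive cells of batch A, and at 141 ± 12.6 and 159 ± 21.3 CPM in those of batch B. It was higher in Sox2-positive cells over both batches (log2 0.39, SE 0.11, adjusted p 0.00345, edgeR) and in batch A (0.58, adjusted p 0.00539), and did not pass in batch B (0.25, SE 0.13, adjusted p 0.106). Adam17, which sheds TNF and several EGF receptor ligands, was lower, with Sox2-positive means of 39.8 ± 6.37 and 38.5 ± 8.27 CPM in the batches and Sox2-negative means of 76.7 ± 24.9 and 110 ± 21.1 CPM (log2 -1.22, SE 0.15, adjusted p 1.39e-07). Its exons overlap Iah1 on the other strand. Adam9, a widely expressed relative, was not called (log2 -0.14, SE 0.19, adjusted p 0.561), with means of 29.4 to 42 CPM.

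The meltrins and metargidin were lower in Sox2-positive cells of both batches. Adam12 (ENSMUSG00000054555.11, chr7:133883199-134232146, - strand), meltrin alpha, ranged from 35.3 to 55.4 CPM in batch A Sox2-negative libraries (median 48.7) and from 0.663 to 9.57 CPM in Sox2-positive libraries (median 2.49). In batch B, Adam12 was at 40, 55.7, 90.2 and 47.4 CPM against 5.25 to 19.1 CPM (median 8.72). Without overlap in either batch, its log2 fold change was -3.10 (SE 0.34, adjusted p 1.59e-08, edgeR).

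Adam19 (ENSMUSG00000011256.16, chr11:46055992-46147343, + strand), meltrin beta, ranged from 16.1 to 69 CPM in batch A Sox2-negative libraries (median 36.5) and from 10.6 to 15.1 CPM in Sox2-positive libraries (median 13.9). In batch B, Adam19 was at 31.5, 42.3, 25.7 and 24.4 CPM against 1.29 to 14 CPM (median 2.14). The populations were close in batch A, without overlap, and further apart in batch B, where 1 Sox2-positive library, replicate 5, stood above the others. The log2 fold change was -2.17 over both batches (SE 0.35, adjusted p 7.91e-06, edgeR), and the batches did not differ by test (-1.55, adjusted p 0.159), except without that library (adjusted p 0.00467).

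Adam15 (ENSMUSG00000028041.17, chr3:89338542-89349996, - strand), metargidin, ranged from 130 to 219 CPM in batch A Sox2-negative libraries (median 147) and from 23.1 to 36.8 CPM in Sox2-positive libraries (median 28.6). In batch B, Adam15 was at 99.8, 117, 85.2 and 53.5 CPM against 15 to 34.9 CPM (median 23). No library overlapped, and the log2 fold change was -2.17 (SE 0.16, adjusted p 1.16e-11, edgeR). Adam8, an enzyme of myeloid cells, was lower over both batches (log2 -1.72, SE 0.54, adjusted p 0.00802) on uneven values, from 0.521 to 74 CPM in batch A Sox2-negative libraries. Without replicate 5 of that group its adjusted p was 0.0703, and without batch B libraries 1 and 2 it was 0.0534. Adam28 (log2 -1.63) and Adam33 were also lower, from means of at most 5.42 CPM in Sox2-negative cells. Adam33 had 1 count in all in batch A Sox2-positive libraries, a ratio of summed counts, scaled for depth, of 139 (95% counting interval 24.4 to 5527). Adam11, Adam22 and Adam1a were not called over both batches (log2 0.10, -0.25 and -0.46, SE 0.35, 0.37 and 0.82).

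The ADAMTS genes were grouped by substrate. Of the procollagen N-proteinases, which remove the N-terminal propeptide of fibrillar procollagens, Adamts2 (ENSMUSG00000036545.9, chr11:50602084-50807573, + strand) was the highest. It ranged from 92.6 to 131 CPM in batch A Sox2-negative libraries (median 116) and from 1.11 to 31 CPM in Sox2-positive libraries (median 10.1). In batch B, Adamts2 was at 106, 138, 123 and 141 CPM against 0.862 to 7.87 CPM (median 5.25). The groups did not overlap, and the log2 fold change was -3.87 (SE 0.33, adjusted p 1.88e-10, edgeR). Adamts3 was lower over both batches (log2 -1.83, SE 0.72, adjusted p 0.0321), a call that was lost without batch B libraries 1 and 2 (adjusted p 0.0881) and in 9 of 23 fits that each left out 1 library (adjusted p 0.0503 to 0.0789). Adamts14 was not called (log2 0.02, SE 0.44, adjusted p 0.975).

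Among the enzymes that cleave aggrecan and versican, Adamts4 and Adamts5 were lower in both batches, though Adamts5 missed the threshold in batch A without Sox2-positive replicate 3 or 4 (adjusted p 0.0526 and 0.0558, edgeR). Adamts4 fell from 43.1 ± 10.9 to 4.05 ± 2.86 CPM in batch A and from 51.6 ± 21 to 6.16 ± 2.62 CPM in batch B (log2 -3.24, SE 0.28, adjusted p 2.22e-10, edgeR). Adamts5 fell from 56.4 ± 13.1 to 27.3 ± 16.4 CPM and from 46.7 ± 11.2 to 14.5 ± 3.11 CPM (log2 -1.34, SE 0.22, adjusted p 1.09e-05). Adamts1 was lower over both batches and in batch B (log2 -0.90 and -1.59) but not by test in batch A (-0.23, adjusted p 0.581). Adamts15 was not called (log2 0.57, SE 0.74, adjusted p 0.527), at means of 1.24 to 3.49 CPM.

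The closely related Adamts9 and Adamts20, versicanases that resemble the worm enzyme GON-1, were both lower in Sox2-positive cells, with opposite dependence on batch. Adamts9 (ENSMUSG00000030022.14, chr6:92772699-92943492, - strand) ranged from 77.6 to 248 CPM in batch A Sox2-negative libraries (median 128) and from 2.38 to 8.25 CPM in Sox2-positive libraries (median 5.24). In batch B, Adamts9 was at 69.7, 71.1, 84.5 and 68.1 CPM against 13.3 to 21.6 CPM (median 19.9). All Sox2-positive libraries of batch B stood above all of batch A. The log2 fold change was -4.81 (SE 0.36) in batch A and -1.92 (SE 0.18) in batch B, and the batches differed by 2.83 (SE 0.40, adjusted p 3.17e-05, edgeR). Exons of A730049H05Rik and Gm15737 overlap those of Adamts9 on the other strand.

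Adamts20 (ENSMUSG00000022449.14, chr15:94270163-94465418, - strand) ranged from 39.6 to 142 CPM in batch A Sox2-negative libraries (median 78.9) and from 0.636 to 20.9 CPM in Sox2-positive libraries (median 5.11). In batch B, Adamts20 was at 83, 84.7, 36.9 and 45 CPM against 0 to 2.14 CPM (median 0). It had no count in 4 of the 7 Sox2-positive libraries of batch B. The log2 fold change was -3.27 (SE 0.58) in batch A and -6.75 (SE 0.60) in batch B, and the batches differed by -3.55 (SE 0.91, adjusted p 0.0153, edgeR), or by -2.61 without batch B libraries 1 and 2 (adjusted p 0.249).

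Of the other ADAMTS enzymes, Adamts12 (ENSMUSG00000047497.10, chr15:11064790-11349231, + strand), which cleaves cartilage oligomeric matrix protein, had the lowest log2 fold change of its family, -4.85 (SE 0.46, adjusted p 1.24e-09, edgeR). It ranged from 12.3 to 39.6 CPM in batch A Sox2-negative libraries (median 18.4) and from 0 to 1.5 CPM in Sox2-positive libraries (median 0.339). In batch B, Adamts12 was at 15.4, 19.6, 26.2 and 20.5 CPM against 0 to 2.18 CPM (median 0.543). The populations were apart in both batches, and the batches did not differ by test (0.27, SE 0.87, adjusted p 0.924). Adamts10, which binds fibrillin, fell less (log2 -0.77, SE 0.16), from 105 ± 38.6 to 57.5 ± 13.9 CPM in batch A and from 96.2 ± 21.9 to 62 ± 7.24 CPM in batch B. Adamts6, Adamts16 and Adamts19 were lower as well (log2 -3.14, -3.49 and -2.05), and Adamts7, Adamts17 and Adamts18 were not called over both batches (-0.36, 0.05 and 0.78). Adamts16 was clearly expressed only in batch A Sox2-negative cells, at 10.7 ± 7.28 against 0.349 ± 0.767 CPM. In batch B its means were 1.03 ± 1.56 and 0.28 ± 0.417 CPM, and libraries of the populations overlapped in both batches.

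Adamtsl2 (ENSMUSG00000036040.14, chr2:27079379-27108981, + strand), a fibrillin-binding ADAMTS-like protein, was nearly undetected in 1 group. It ranged from 4.95 to 20.3 CPM in batch A Sox2-negative libraries (median 14.2), and in the 6 Sox2-positive libraries it had 1 count in all, giving a ratio of summed counts, scaled for depth, of 409 (95% counting interval 72.8 to 16186). In batch B, Adamtsl2 was at 4.85, 7.77, 5.2 and 5.93 CPM against 0 to 3.39 CPM (median 1.55). The populations did not overlap in either batch. The batch B difference was -1.91 (SE 0.64, adjusted p 0.0187, edgeR; 0.0533 without batch B Sox2-negative replicate 2, and 0.162 without libraries 1 and 2), and the batches differed by 5.90 (SE 1.11, adjusted p 0.00106). Adamtsl3 had no count in the 6 Sox2-positive libraries of batch A, where the floor of 3 counts was 7.82-fold under the Sox2-negative mean of 4.63 CPM. Those Sox2-negative libraries were uneven, from 0.209 to 11.1 CPM (median 2.85), so this fold describes the mean and not each library. Adamtsl1, Adamtsl4 and Adamtsl5 were not called over both batches (log2 -0.80, -1.67 and -0.02, SE 0.36, 0.74 and 0.49).

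**Figure D4:**
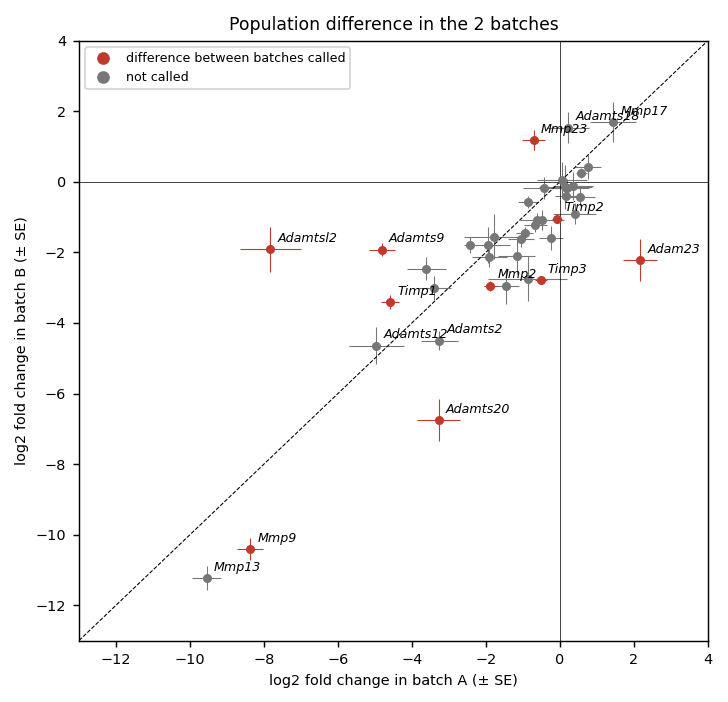
Log2 fold change of Sox2-positive over Sox2-negative cells in batch B against batch A, with standard errors, for the 41 genes tested in both. Most points lie at negative values on both axes near the dashed line of equality, and Adam23 alone is called on both axes with opposite signs, at 2.18 and -2.21.

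The population difference changed between the batches for 10 of the 50 genes tested, 4 with a higher value in batch B and 6 with a lower one, beside 7.04% of all genes tested (2.82% higher, 4.22% lower). The 10 were Mmp2, Mmp9, Mmp23, Timp1, Timp2, Timp3, Adam23, Adamts9, Adamts20 and Adamtsl2. All 3 Timp genes were among them. Each batch shares no library with the other, but batch is also day and mice, which cannot be told apart.

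Adam23 (ENSMUSG00000025964.15, chr1:63445891-63596276, + strand), a catalytically inactive ADAM that binds integrins and is known from neural tissue, was the 1 gene called in both batches with opposite signs, as were 0.636% of all genes tested in both. It ranged from 2.1 to 14.7 CPM in batch A Sox2-negative libraries (median 5.84) and from 19.9 to 39.6 CPM in Sox2-positive libraries (median 35.9). In batch B, Adam23 was at 17, 15.4, 8.94 and 29.8 CPM against 0 to 11.2 CPM (median 2.96). Sox2-positive libraries were all higher in batch A and, except for replicate 6, all lower in batch B. The log2 fold change was 2.18 (SE 0.46, adjusted p 0.00122, edgeR) in batch A and -2.21 (SE 0.60, adjusted p 0.00528) in batch B, and the batches differed by -4.46 (SE 0.80, adjusted p 0.000609). Without batch B libraries 1 and 2 the batch B difference was -2.27 and did not pass (adjusted p 0.0608). Between batches the change was called on the Sox2-positive side (log2 -3.20, adjusted p 0.000184, edgeR). The Sox2-negative mean was higher in batch B, at 17.8 ± 8.74 against 7.42 ± 5.27 CPM in batch A, and was not called. In Sox2-positive libraries the summed glial markers were 227 to 327 CPM in batch A as against 15 to 33.6 CPM in batch B. Their part in the Adam23 level was not tested.

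Mmp23, a membrane-linked MMP released by furin-type cleavage, had means of 42.7 ± 17.8 CPM in Sox2-negative and 25.9 ± 6.14 CPM in Sox2-positive cells of batch A (log2 -0.71, adjusted p 0.0663, edgeR), and of 12.9 ± 4.67 and 27.9 ± 7.61 CPM in those of batch B (log2 1.18, adjusted p 0.00255). The batches differed by 1.83 (SE 0.42, adjusted p 0.00706), with the shift in Sox2-negative cells (log2 -1.73, adjusted p 0.000888) and not in Sox2-positive cells (0.10, adjusted p 0.905). Adamts18 was higher in batch B Sox2-positive cells, at 67.6 ± 11 against 24.4 ± 21.5 CPM (log2 1.54, adjusted p 0.00658; 0.114 without libraries 1 and 2). In batch A it was at 19.7 ± 3.25 against 17 ± 12.8 CPM (log2 0.22, adjusted p 0.781), and the change between batches did not pass (1.26, SE 0.74, adjusted p 0.369).

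**Figure D5:**
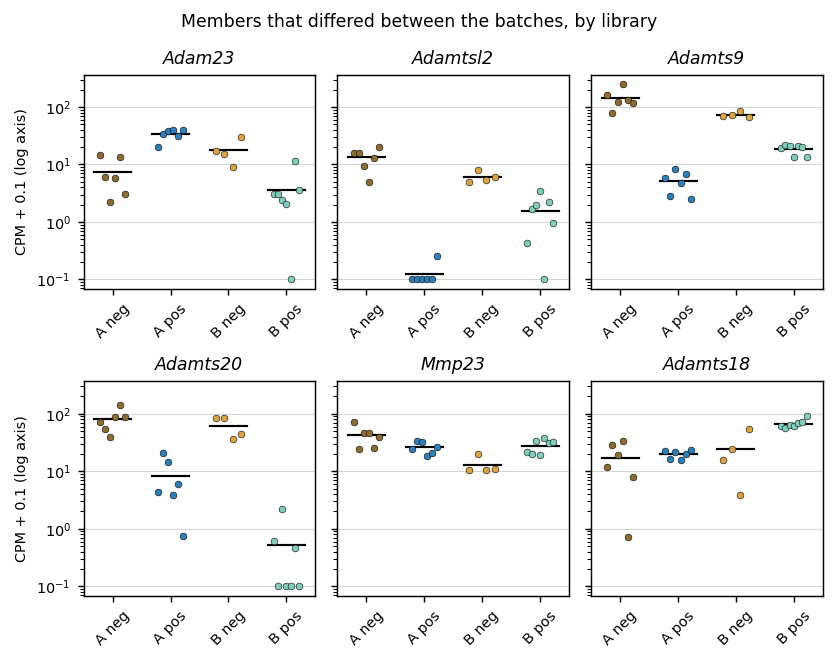
CPM + 0.1 on a log axis for 6 genes that differed between the batches in at least 1 population, 1 point per library and a bar at the group mean, by batch (A, B) and population (neg, pos). Adam23 is higher in batch A Sox2-positive libraries and lower in those of batch B, and Adamts9 and Adamts20 of the Sox2-positive libraries move in opposite directions between the batches.

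Between batches within a population, 7 members differed in Sox2-negative and 15 in Sox2-positive cells. In Sox2-negative cells 3 genes were higher in batch B (Mmp2, Mmp14 and Timp2) and 4 lower (Mmp23, Timp1, Adam15 and Adamts9), beside 5.85% of all genes higher and 5.35% lower, together 11.2%. Without batch B Sox2-negative replicate 4 the number called was 4. Without batch B libraries 1 and 2, Timp1 and Adamts9 no longer passed (adjusted p 0.179 and 0.254, edgeR), and Adam15 did not pass without batch B Sox2-negative replicate 3 or 4 (0.0572 and 0.0982). The median summed level of the erythroid markers in Sox2-negative libraries was 736 CPM for batch A against 35637 CPM for batch B, and that of the mast cell markers 675 and 31.8 CPM. In Sox2-positive cells 4 genes were higher in batch B (Adam12, Adamts9, Adamts18 and Adamtsl2) and 11 lower (Mmp9, Mmp15, Mmp17, Timp3, Adam10, Adam11, Adam19, Adam23, Adamts1, Adamts5 and Adamts20), beside 4.85% of all genes higher and 5.54% lower, together 10.4%. Without batch B libraries 1 and 2, Adam12, Adam19, Mmp15, Mmp17, Mmp9, Adam11, Adamts5 and Adamts18 no longer passed (adjusted p 0.0628, 0.0749, 0.0806, 0.108, 0.137, 0.208, 0.165 and 0.0552, edgeR), and Mmp14 passed (log2 0.40, adjusted p 0.0152). The 4 muscle markers summed to 39.9 to 127 CPM in batch B and to at most 8.52 CPM in batch A Sox2-positive libraries. The part of these cell types in the batch differences was not tested.

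The other 30 genes of the families were under 1 CPM. Adam25, Adam34, Adam6b, Mmp10, Mmp1b, Mmp3 and Mmp7 had no count in any library, and 18 of the 30 had at most 3 counts in every library. Most of the genes so low were ADAMs, 19 of 33, a family with many testis enzymes, while 8 Mmp, 2 Adamts and 1 Timp gene were under the threshold. Just under it were Adam5 at 0.967, Adamts8 at 0.837 and Timp4 at 0.821 CPM, and just above it Adam4 at 1.08, Adamtsl3 at 1.74 and Mmp19 at 2.21 CPM. Of the 30, only Adam5 passed a filter, in batch B, and it was not called (log2 -0.01, SE 0.87, adjusted p 0.991, edgeR).

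Of 15 genes that regulate these enzymes, 6 were higher in Sox2-positive cells over both batches, 2 lower, 6 not called and 1 not tested, with a median log2 fold change of 0.39. Beside them, 24.9% of all genes tested were higher and 32.5% lower, so the share called in either direction was near that of all genes, 57.5%. Bsg, the membrane protein basigin that induces MMPs in neighbouring cells, was higher (log2 0.74, SE 0.06), as was Furin, the convertase that activates membrane-type MMPs and ADAMs (0.83, SE 0.14). Tspan15 and Tspan5, tetraspanins that bind ADAM10, were higher by 1.33 and 1.00, and Rhbdf2 and Frmd8, which carry and stabilise ADAM17, by 0.97 and 0.70. Reck, a membrane-anchored MMP inhibitor, was lower (log2 -2.11, SE 0.28), from 53.6 to 18.7 CPM in the means of batch A and from 88.7 to 12.9 CPM in those of batch B, as was the convertase Pcsk5 (-4.65, SE 0.34).

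Lists of neighbouring protease systems and of substrates were read against the same 32.5% lower and 24.9% higher among all genes tested. Of 8 genes of the plasminogen system 4 were lower, none higher, 1 not called and 3 not tested (median log2 fold change -0.60): the urokinase receptor Plaur (-2.33), Plau (-1.37), Plat (-0.60) and the inhibitor Serpine2 (-0.31). Of 12 other matrix proteases and their helpers 8 were lower, 2 not called and 2 not tested (median -3.24). They included Ctsk, the collagenase of bone-resorbing cells, from 444 to 1.57 CPM in batch A and from 211 to 0.696 CPM in batch B (log2 -8.00, SE 0.33), and Bmp1, the procollagen C-proteinase (-0.75, SE 0.13). Of 20 known substrates 11 were lower, 1 higher, 4 not called and 4 not tested (median -1.33). Col1a1 (log2 -5.58), Fn1 (-4.93) and Vcan (-0.98) were lower, and Cdh1, the cadherin cut by ADAM10, was higher (2.11, SE 0.27). Col1a1 and Cdh1 are also on the mesenchymal and epithelial marker lists.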

How the data were processed

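RNA sequencing of 23 libraries from 4 groups was used. What the authors deposited is 1 table of estimated counts per gene and library. FastQC, Trimmomatic, Salmon and the mm10 build are named per the submitters' processing notes, while their settings, the annotation and any strand setting are not given in the sources used here. The deposited estimated counts were not scaled by transcript length: values near a single read had medians of 0.983 to 1.01 at every transcript length examined. They were rounded to whole numbers here. Without a known strand setting, the 20 members with exons overlapping another gene are uncertain. Symbols came from GENCODE M21 (54094 identifiers matched, 99.5%). ATAC-seq libraries were not analysed here. The glial markers lack 2 listed genes, which are not reported here.

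Tests used edgeR 4.0.16 in R 4.3.3: TMM scaling, filterByExpr with a minimum count of 10, the quasi-likelihood test and Benjamini-Hochberg adjustment over all genes tested, with a call at an adjusted p under 0.05. Batch was a covariate over all libraries, each batch was fitted alone, and a model of the 4 group means gave the batch differences and the interaction. CPM used TMM-scaled totals. The fits were also run on simulated counts with few changed genes, drawn evenly in both directions. The real populations differed in far more genes, so that run does not test the scaling at such a share. All library pairs differed by more than sampling noise (lowest chi-square/df 5.08). Intervals come from counts summed over libraries, so they and the floors cover only the counting error and leave out the spread between libraries. The protocol has no molecular identifiers, so even the counting error may be understated.

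Members, lists and the naming rule were chosen with earlier results of these data known. Values per library were given for the detailed Timp genes, for the up to 3 highest and 3 lowest log2 fold changes per family among genes of at least 10 CPM called with 1 sign in all 3 fits, for genes called with opposite signs in the batches, and for the 5 smallest interaction p-values. Other genes have group means or are counted. Alternatives were RLE factors, total-count scaling, DESeq2 1.42.0, limma-voom (limma 3.58.1) with sample quality weights, 2 other filters, a replicate block, and leaving out batch B libraries 1 and 2 or each library.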

Additional observations from a re-analysis of the deposited data

Results flagged for a closer look

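For 10 genes the difference between Sox2-positive and Sox2-negative cells was itself different between the batches (edgeR interaction, adjusted p under 0.05), given here as batch B minus batch A on the log2 scale. Adamtsl2 had a value of 5.90, Adamts9 of 2.83, Mmp23 of 1.83 and Timp1 of 1.12. On the other side lay Adam23 at -4.46, Adamts20 at -3.55, Timp3 at -2.33, Mmp9 at -2.09, Mmp2 at -1.13 and Timp2 at -1.04. Batch, day and mice cannot be told apart in this design.

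A single library stood far from the others of its group in 8 of the 60 groups of libraries examined for the genes given by library. The rule marks about 1 in 20 groups of normally distributed values. It was applied to CPM without a log scale, and groups of different genes share libraries, so the 8 cannot be compared with that rate. In batch A Sox2-negative libraries, Adam15 reached 219 CPM in replicate 2, Adamts12 reached 39.6 CPM in replicate 4 and Timp3 reached 359 CPM in replicate 3. Mmp9 was low in batch B Sox2-negative replicate 4, at 389 CPM. Among the Sox2-positive libraries of batch B, Adam19 stood out in replicate 5 at 14 CPM, Adam23 in replicate 6 at 11.2 CPM and Adamts20 in replicate 3 at 2.14 CPM. Adamtsl2 had its 1 count of the batch A Sox2-positive libraries in replicate 6, at 0.159 CPM. With the others at 0, any single count would stand apart in this way, so this one carries no information on spread.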

How the results depend on the processing

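No called difference of a named gene changed sign under any alternative run. Over both batches 34 members were called, 32 to 46 under other settings and 33 to 37 with 1 library left out. Those called higher were 2, 4 with limma-voom, 5 without a filter beyond a summed count of 1 and 2 to 4 with 1 library left out, and those called lower were 32, with 29 (replicate block) to 41 (no filter) under other settings and 31 to 34 with 1 library left out. In batch A the 22 calls became 23 to 24 with 1 library left out, and in batch B the 33 became 30 to 35. The interaction calls, 10, ranged from 9 to 12 in this way. For the batch difference within Sox2-negative cells, limma-voom gave 11 calls (7 higher) in place of 7 (3 higher). The range with 1 library left out was 4 (without batch B replicate 4) to 9 (without batch A replicate 6), and without batch B libraries 1 and 2 those lower were 2 in place of 4. Within Sox2-positive cells 15 were called, and 8 without batch B libraries 1 and 2 (5 lower in place of 11) and 11 to 15 with 1 library left out, and limma-voom gave 7 higher in place of 4. Left out 1 at a time, libraries ended the call of Timp1 (8 fits), Adamts9 (4) and Adam15 (2) within Sox2-negative cells, and of Adam11 (11), Adamts5 (10), Mmp17 (7), Adam12 (6) and Mmp9 (4) within Sox2-positive cells. The cause of these changes was not tested. Total-count scaling moved the median log2 fold change of all genes over both batches from -0.12 to 0.00.

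Same-numbered libraries of the populations did not deviate together (r from -0.0212 to 0.0444 over 10 pairs), so the replicate block was not used for calls. With the replicate block the interaction had 6 calls (2 higher) in place of 10 (4 higher), batch B had 1 higher in place of 3, and 32 members were called over both batches. At low depth, 3 counts amount to 0.314 to 1.30 CPM before TMM scaling, which limits the 30 members under 1 CPM.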
